A study of Mus musculus with 24 samples.

Results

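Axon guidance ligands and receptors were followed in hippocampal RNA of mice that lost *Tsc1* in adult excitatory neurons. The genes were taken by symbol: every protein-coding gene of the class 3 to 7 semaphorins, plexins, neuropilins, ephrins, Eph receptors, Slits, Robo receptors, netrins, netrin-G proteins, Unc5 receptors and *Dcc*. This rule used no measured value and found 71 genes among the 55385 gene identifiers counted, of which 21897 are protein-coding. They comprise 20 semaphorins, 9 plexins, 2 neuropilins, 8 ephrins, 14 Eph receptors, 3 Slits, 4 Robo receptors, 4 netrins, 2 netrin-G genes, and the 4 Unc5 receptors with *Dcc*, or 37 ligand genes and 34 receptor genes.

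The study asked which transcripts change between deletion of *Tsc1* and the first seizures, and which of them respond to rapamycin. RNA of 24 mice was sequenced, 4 in each of 6 groups. All mice carried floxed *Tsc1* alleles and all received tamoxifen. *Tsc1-Cre-* controls lacked the Camk2a-CreERT2 transgene and were taken on day 8, counted from the first tamoxifen injection. *Tsc1-Cre+* mice carried the transgene and were taken on day 4, 6, 8 or 13. *Tsc1-Cre+*-Rap 4 mice, called the rapamycin group here, carried the transgene, received rapamycin at 10 mg/kg daily from day 4 and were also taken on day 13. The mice were adults of both sexes, and controls were littermates without Cre. The *Camk2a* promoter restricts Cre to excitatory forebrain neurons, so interneurons, glia and vessels of the same hippocampus should have kept *Tsc1*. Bulk RNA does not show this for single cell types. There was no Cre-negative group on day 13, and no group received rapamycin without the deletion.

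Guidance cues were named for steering growing axons in the embryo, and many stay expressed in the adult hippocampus, where they act on synapses, spines and vessels. Semaphorins signal through plexins, with neuropilins as co-receptors for most secreted class 3 members. Ephrins bind Eph receptor tyrosine kinases, Slits bind Robo receptors, and netrins bind Dcc and Unc5 receptors. Netrin-G proteins are anchored to the axon membrane and bind the synaptic proteins Lrrc4c and Lrrc4 on the facing dendrite rather than the netrin receptors. TSC1 restrains the kinase complex mTORC1, which rapamycin inhibits.

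*Tsc1* was lower in all 20 *Tsc1-Cre+* mice than in the 4 controls. *Xist*, used here for sex, was unequally spread over the groups. It was 636 to 1070 CPM in controls B to D, mouse D of day 4, mouse A of day 6 and mice A to C of day 8. Mice C and D of day 13 and mice A and B under rapamycin were also in this range. All other mice had at most 3.18 CPM. Total counts ran from 28208561 to 126435936 per mouse, and the widest range was on day 13, from 38423852 to 126435936. In bulk tissue, fewer cells of a type and less RNA per cell cannot be told apart. The number series of the libraries is shared between controls and day 8 mice, while every other group has series of its own, for which series and group cannot be told apart. The defining markers of pyramidal neurons, granule cells, interneurons, glia and vessels all had counts in every mouse, and 1 choroid plexus marker had none in at least 1 mouse. The summed choroid plexus markers ran from 37.9 to 1680 CPM, which are counts relative to the TMM-adjusted library size. They differed widely within groups, from 59.1 to 1680 CPM in controls, and were unequal between groups. Their median was 72.9 CPM in controls, 700 on day 4 and 771 on day 6. It was 54.2 CPM on day 8, 255 on day 13 and 74.2 under rapamycin. Their part in the differences of the guidance genes was not tested.

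The sequences around the start sites of 5 members are given first, because of the differences described below. *Ntng1* had the largest fall and *Sema3a* the largest rise, *Sema3e* and *Plxnd1* encode a ligand and its receptor that were both higher on day 13, and *Epha10* was the one member called on day 4. Each sequence runs 5′ to 3′ on the strand of its gene, from 250 bases before to 50 bases after the RefSeq start (GRCm38.p6), and capitals mark matches on either strand to the E-box CACGTG, the CRE TGACGTCA, the EGR site GCGTGGGCG, the AP-1 site TGANTCA or the GC box GGGCGG. They lie at chr3:110143423-110143722 on the minus strand for *Ntng1*, chr5:13396534-13396833 on the plus strand for *Sema3a*, chr5:14025026-14025325 on the plus strand for *Sema3e*, chr6:115994956-115995255 on the minus strand for *Plxnd1* and chr4:124881535-124881834 on the plus strand for *Epha10*.
Ntng1: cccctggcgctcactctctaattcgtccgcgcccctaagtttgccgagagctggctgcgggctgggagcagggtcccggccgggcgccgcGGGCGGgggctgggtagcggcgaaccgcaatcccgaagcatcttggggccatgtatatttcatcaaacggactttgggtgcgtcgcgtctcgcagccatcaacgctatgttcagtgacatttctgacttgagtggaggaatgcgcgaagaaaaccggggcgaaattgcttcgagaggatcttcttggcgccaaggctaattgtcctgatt
Sema3a: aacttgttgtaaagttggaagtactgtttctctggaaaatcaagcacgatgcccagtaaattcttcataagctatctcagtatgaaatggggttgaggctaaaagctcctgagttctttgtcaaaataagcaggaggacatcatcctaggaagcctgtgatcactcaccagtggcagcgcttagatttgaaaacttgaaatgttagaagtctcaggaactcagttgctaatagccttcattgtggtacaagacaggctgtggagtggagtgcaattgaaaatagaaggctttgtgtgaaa
Sema3e: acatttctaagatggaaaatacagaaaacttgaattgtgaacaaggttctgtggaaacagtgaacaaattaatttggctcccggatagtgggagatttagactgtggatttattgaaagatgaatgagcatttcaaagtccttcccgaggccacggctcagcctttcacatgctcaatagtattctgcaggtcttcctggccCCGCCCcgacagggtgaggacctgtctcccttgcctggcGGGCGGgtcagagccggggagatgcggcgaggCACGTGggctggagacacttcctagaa
Plxnd1: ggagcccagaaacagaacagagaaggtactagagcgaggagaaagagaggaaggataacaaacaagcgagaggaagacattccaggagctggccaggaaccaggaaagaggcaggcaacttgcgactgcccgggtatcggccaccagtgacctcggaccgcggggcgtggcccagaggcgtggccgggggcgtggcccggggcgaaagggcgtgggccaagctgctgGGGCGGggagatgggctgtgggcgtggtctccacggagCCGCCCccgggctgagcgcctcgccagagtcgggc
Epha10: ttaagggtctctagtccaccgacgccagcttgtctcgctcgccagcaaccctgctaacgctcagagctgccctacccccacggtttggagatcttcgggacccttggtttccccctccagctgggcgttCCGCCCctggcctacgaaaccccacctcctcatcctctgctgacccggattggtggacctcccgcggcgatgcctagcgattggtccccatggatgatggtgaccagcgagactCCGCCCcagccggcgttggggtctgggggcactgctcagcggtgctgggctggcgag

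Sequences were found for 61 of the 71 members, some with more than 1 start, giving 77 promoters. The RefSeq start was also the first base of the GENCODE gene for *Sema3e* and *Plxnd1*. It lay 539 bases inside the GENCODE gene for *Ntng1*, 886 bases inside for *Epha10* and 271370 bases inside for *Sema3a*, so the *Sema3a* sequence belongs to a downstream start of that gene. A GC box was present in 54 of the 77 member promoters, 70.1%, against 35.9% of the 32544 different promoters in the same table. The 32544 are unique sequences over all genes, whereas the 77 count each start of a member, so these motif shares are not like for like. An E-box was in 6.49% of member promoters against 7.17%, a CRE in 1.3% against 1.8%, an AP-1 site in 3.9% against 7.79% and an EGR site in 2.6% against 0.618%, the last being 2 promoters. Of the 5 sequences, those of *Ntng1*, *Sema3e*, *Plxnd1* and *Epha10* held 1 or 2 GC boxes, that of *Sema3e* also held 1 E-box, and that of *Sema3a* held none of these motifs. The GC content was 41.3% for *Sema3a*, 50.7% for *Sema3e*, 59.7% for *Ntng1*, 65.3% for *Epha10* and 67% for *Plxnd1*. These matches describe letters in a window and no binding was measured.

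In control hippocampus the members spanned a wide range of levels. Levels between genes are compared as RPKM, reads scaled by merged exon length and library size. *Epha4*, a receptor for both ephrin classes, was highest at 86.4 RPKM, followed by *Epha6* at 64.1, *Slit1* at 50.3, *Plxna4* at 36.7, *Epha7* at 32.7 and *Sema7a* at 29.9. In all, 20 members reached 10 RPKM and 8 were under 1 RPKM, among them *Efna4* at 0.193, *Sema3a* at 0.241 and *Epha2* at 0.374. The 14 Eph receptors had the widest spread of any receptor family, from 0.374 to 86.4 RPKM with a median of 5.26, while the 4 netrins all lay between 1.35 and 2.08 RPKM. The netrin-G genes were alike, with *Ntng1* at 6.25 and *Ntng2* at 6.18 RPKM, a difference smaller than the spread between the control mice.

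**Figure D1:**
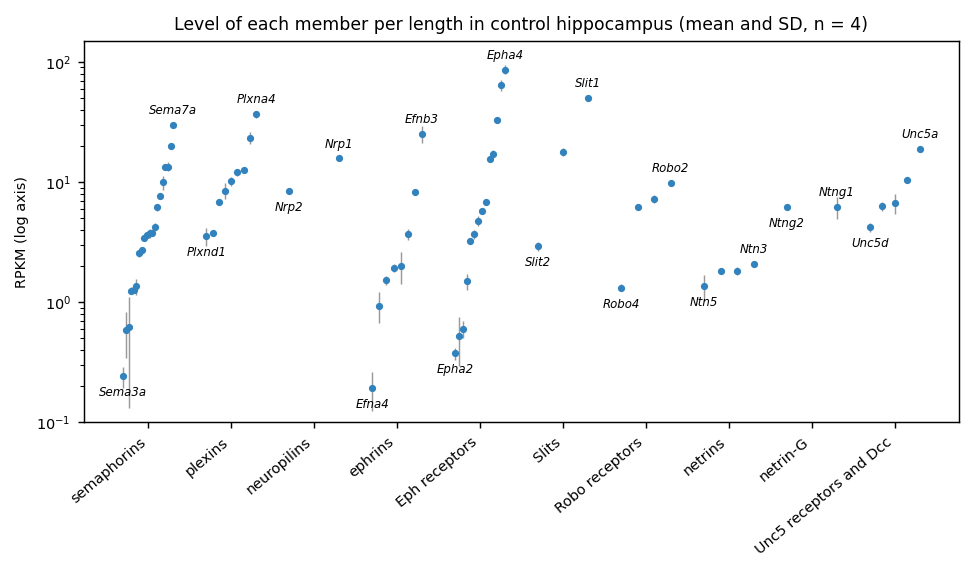
Level of each of the 71 members in the 4 control mice, as RPKM on a log axis, grouped by family; points are means and whiskers SDs, and the highest and lowest member of each family are named. *Epha4* sits highest at 86.4 RPKM and *Efna4* lowest at 0.193.

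Over the 6 groups, 45 of the 71 members differed in the F test of edgeR's quasi-likelihood fit of all 24 mice at an adjusted p under 0.05. This is 63.4% of the members, against 41.9% of all 27110 genes tested and 52.4% of the protein-coding genes tested. The members that differed included 14 of 20 semaphorins, 7 of 9 plexins, 9 of 14 Eph receptors, 3 of 8 ephrins, 2 of 3 Slits, 2 of 4 Robo receptors, 2 of 4 netrins, both netrin-G genes, *Nrp2*, and *Dcc*, *Unc5a* and *Unc5c*. *Sema7a* had the smallest adjusted p, 2.29e-08, followed by *Ntng1* at 5.98e-06 and *Plxna3* at 1.16e-05.

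Between a pair of groups, a gene counts as called where its log2 fold change in edgeR's quasi-likelihood test exceeds 0.5 in size with an adjusted p under 0.05. On day 4, 1 of 71 members was called, 1.41%, against 0.68% of all genes tested. On day 6, 0 of 71 were called by edgeR or by DESeq2, against 1.32% of all genes, and 24 had an unadjusted p under 0.05 (24.2% of all genes did). On day 8, 7 were called, 9.86%, against 3.99% of all genes: 3 were higher (2.15% of all genes were) and 4 lower (1.84% of all genes). On day 13, 17 were called, 23.9%, against 16.5% of all genes and 16.6% of protein-coding genes. Of these, 8 were higher and 9 lower, where 8.4% of all genes were called higher and 8.06% lower; among protein-coding genes 1843 were higher and 780 lower. The median log2 fold change of the members on day 13 was -0.07, and that of protein-coding genes was 0.08. Ligands and receptors were both represented, with 10 of 37 ligand genes and 7 of 34 receptor genes called.

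**Figure D2:**
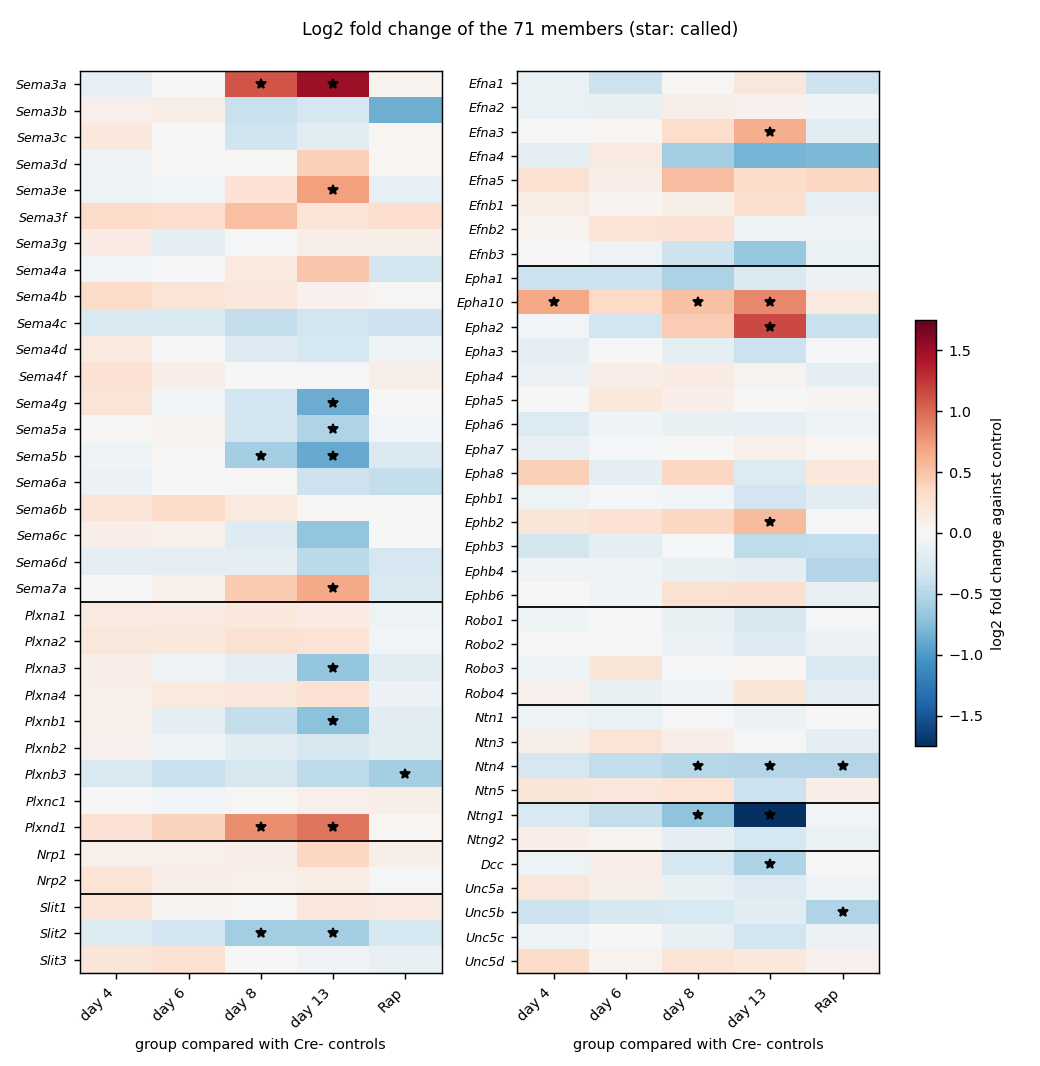
Log2 fold change of each of the 71 members against the 4 control mice on day 4, 6, 8 and 13 and under rapamycin (Rap), in family order, with red higher and blue lower; stars mark called members. Stars number 1 on day 4, 0 on day 6, 7 on day 8, 17 on day 13 and 3 under rapamycin.

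No member was called from day 4 to day 6 (24 of 71 had an unadjusted p under 0.05), from day 6 to day 8 (27 of 71) or from day 8 to day 13 (9 of 70) by edgeR, the only tool run on these steps. Of all genes, 0.604%, 0.229% and 0% were called in these steps. The share of all genes at the unadjusted p was not computed for them, so the 24, 27 and 9 members have no background beside them. At the adjusted p alone, 8 of 71 members passed from day 4 to day 6 (1042 of 25184 genes did), 1 of 71 from day 6 to day 8 (104 of 24871) and 0 of 70 from day 8 to day 13 (0 of 24747). From day 4 to day 6, *Plxnb1* fell by 0.27 (edgeR adjusted p = 0.00697), *Epha10* by 0.32 (0.0141), *Unc5d* by 0.26 and *Sema4d* by 0.21 (log2), while *Epha4* rose by 0.21 (0.0158), *Dcc* by 0.20 (0.0256), *Epha5* by 0.17 and *Epha6* by 0.17. From day 6 to day 8, *Sema7a* rose by 0.36 (edgeR adjusted p = 0.0262). The time courses of the other members are described by each group's distance from the controls. Members also varied more between mice late in the course: over the 60 members with at least 5 CPM in controls, the median coefficient of variation was 6.54% in controls and 14.4% on day 13.

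Among the ligands, the netrin-G gene *Ntng1* had the largest difference of any member. *Ntng1* encodes netrin-G1, an axonal ligand of the postsynaptic protein Lrrc4c. The 4 controls had 41.9, 44.6, 53.4 and 66.1 CPM. Day 4 mice had 40 to 45.2 CPM and day 6 mice 38.3 to 39.7 CPM. Day 8 mice had 21.9, 28.7, 40.2 and 36.4 CPM, and day 13 mice 10.9, 11.5, 24.2 and 15.9 CPM. Every mouse of day 6, 8 and 13 was thus below every control, and the highest day 13 mouse was above the lowest day 8 mouse. The fall was -0.71 ± 0.19 (log2, SE) on day 8 with an adjusted p of 0.0301 and -1.74 ± 0.26 on day 13 with an adjusted p of 0.00199. With 1 mouse left out at a time, the day 13 value stayed between -2.01 and -1.60 and was called each time, and the day 8 call was kept in 4 of 8 fits. The related *Ntng2* did not pass on day 13, at -0.31 with an adjusted p of 0.0509. Rapamycin mice had 44.9, 44.9, 48.1 and 60.1 CPM of *Ntng1*, all within the range of the controls.

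*Sema3a* rose most. It encodes a secreted repellent that acts through Nrp1 and class A plexins and is known from perineuronal nets in adult brain. It is a low-level gene here, with 3.19, 3.70, 4.04 and 2.45 CPM in controls. Day 8 mice had 4.47, 7.34, 11.96 and 5.16 CPM and day 13 mice 15.4, 8.92, 8.95 and 5.20 CPM. All 8 of these mice were above every control, whereas day 4 and day 6 mice, from 2.42 to 4.36 CPM, overlapped them. The rise was 1.09 ± 0.28 on day 8 (adjusted p = 0.0283, edgeR) and 1.5 ± 0.30 on day 13 (adjusted p = 0.00661, edgeR). The day 8 call was lost when any 1 of the 4 controls was left out, with an adjusted p of up to 0.0856, while the day 13 call held in all 8 such fits. *Sema3a* was 4.23, 1.83, 4.06 and 3.94 CPM under rapamycin.

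The day 13 mice were unequal in *Sema3a*, and they were unequal in the genes that neurons induce when they fire. The summed level of 6 activity-regulated genes (*Fos*, *Arc*, *Npas4*, *Egr1*, *Bdnf* and *Nptx2*) was 930, 932, 1110 and 201 CPM in mice A to D of day 13, against 183 to 228 CPM in controls and 130 to 183 CPM under rapamycin. Mouse D of day 13 was at the level of the controls in that list. Of the members called higher on day 13, it had the lowest *Sema3a*, *Sema3e*, *Plxnd1*, *Efna3*, *Epha2* and *Ephb2* of its group. For *Ephb2* the margin was small, at 55.83 CPM in mouse D against 56.14 in mouse C. The other members called higher, *Sema7a* and *Epha10*, were lowest in mouse B, high in that list. Of the members called lower on day 13, *Ntng1*, *Sema4g*, *Sema5b*, *Plxna3*, *Plxnb1* and *Dcc* were nearest to the controls in mouse C. *Slit2* was nearest in mouse B, and both mice were high in that list. *Sema5a* and *Ntn4* were nearest in mouse D. Without mouse D, 20 members were called on day 13 in place of 17. The share of all genes called in that fit is not given here, so the 20 have no background beside them. The part of neuronal activity in the differences of single members was not tested.

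*Sema3e*, a secreted semaphorin that binds Plxnd1 directly without a neuropilin, had 110.8, 85.2, 84.9 and 89.1 CPM in controls and 186, 221, 109.8 and 103 CPM on day 13. Mice A and B of day 13 were above every control, and mice C and D overlapped control A. In that group, A and B were also the mice with low *Xist* and the deepest libraries. The rise of 0.72 ± 0.23 (adjusted p = 0.0415, edgeR) was called in 2 of 8 fits that left out 1 mouse, and it was 0.46 and not called with *Xist* expression as a covariate for sex. Mice of day 4, 6 and 8 had 82.3 to 143 CPM and overlapped the controls. Rapamycin mice had 73.9 to 94.1 CPM.

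*Sema7a*, a membrane-anchored semaphorin that binds Plxnc1 and integrin beta 1, showed tight groups. Controls had 94.2 to 103 CPM, day 8 mice 135, 139, 139 and 136 CPM, and day 13 mice 172.5, 119, 172 and 169.7 CPM, with mouse B apart from the other three. All mice of both days were above all controls. The difference was 0.46 ± 0.05 on day 8, which had an adjusted p of 0.000278 but missed the fold minimum, and 0.66 ± 0.12 on day 13 (adjusted p = 0.00472, edgeR). Rapamycin mice had 80.2 to 84.8 CPM, below every control, with a difference of -0.25 ± 0.04 that passed the adjusted p (0.00758) and not the fold minimum.

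*Efna3*, an ephrin-A tethered to the membrane by a lipid anchor, was the one ephrin called against control. It had 19.4 to 21.1 CPM in controls and 36.9, 36.8, 29.3 and 23.8 CPM on day 13, with no overlap, and the rise of 0.63 ± 0.13 had an adjusted p of 0.00781. On day 8 it was 21.4 to 27.4 CPM, also without overlap, at 0.31 and below the fold minimum. Exons of *Efna3* overlap *Gm15998* on the opposite strand, and the strand setting of the counting is not given in the sources used here, so reads of the 2 genes may not be separated. The other 7 ephrins lay between -0.82 for *Efna4* and 0.32 for *Efna5* on day 13, and none of these 7 passed. *Efnb3*, the most abundant ephrin at 25.2 RPKM in controls, was 66.5 to 93.1 CPM in controls and 32.8 to 78.5 CPM on day 13, a difference of -0.66 with an adjusted p of 0.0861. It was called at 0.00641 in the fit of all 24 mice and at 0.0099 without mouse D.

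**Figure D3:**
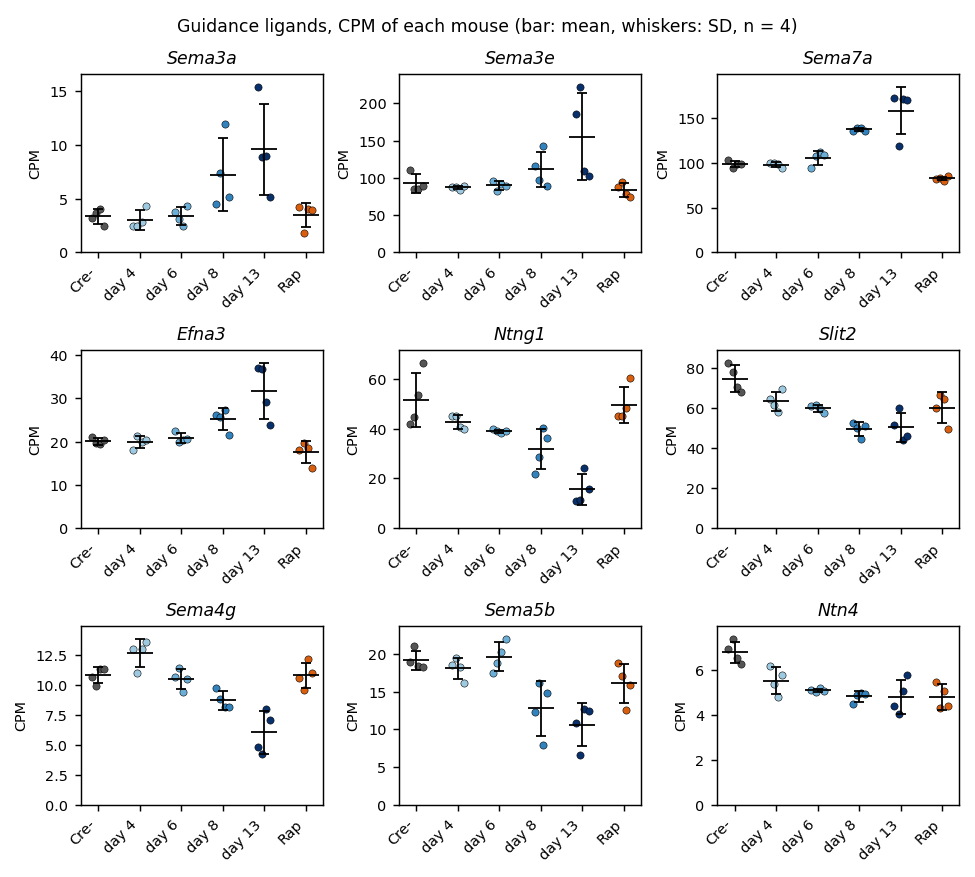
CPM of 9 guidance ligand genes in each of the 24 mice, 4 in each group (Cre- controls, day 4 to day 13, and Rap for the rapamycin group), with the mean as a bar and the SD as whiskers; each vertical axis starts at 0. *Ntng1* fell from 41.9 to 66.1 CPM in controls to 10.9 to 24.2 CPM on day 13, and *Sema3a* rose from 2.45 to 4.04 CPM to 5.20 to 15.4 CPM.

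Besides *Ntng1*, 5 ligand genes were called lower on day 13, namely *Sema5b*, *Sema4g*, *Slit2*, *Sema5a* and *Ntn4*. Their day 13 mice did not overlap the controls, which is no separate evidence because the calls come from the same mice. *Sema5b*, a transmembrane semaphorin with thrombospondin repeats, had 18.2 to 21 CPM in controls, 12.2, 16.1, 7.91 and 14.8 CPM on day 8, and 10.8, 6.55, 12.6 and 12.4 CPM on day 13. It fell by 0.60 on the log2 scale on day 8, a call kept in 2 of 8 fits without 1 mouse, and by 0.88 ± 0.19 on day 13, a call kept in all 8. *Sema4g*, a transmembrane semaphorin, had 10.6, 9.92, 11.4 and 11.3 CPM in controls and 4.81, 4.21, 8.01 and 7.07 CPM on day 13, a fall of 0.87 ± 0.20 (edgeR adjusted p = 0.0133). Day 4 and day 6 mice overlapped the controls in both genes. *Sema5a*, the relative of *Sema5b*, was far more abundant at 240 to 264 CPM in controls and was 153 to 213 CPM on day 13, at -0.53 with an adjusted p of 0.00589, but at -0.50 and not called with the *Xist* level as a covariate.

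*Slit2*, a secreted repellent for Robo-bearing axons, was below the controls from day 6 onward. Controls had 82.2, 77.7, 70.6 and 68.0 CPM, and day 4 mice had 58.1 to 69.5 CPM, just overlapping the lowest control. Day 6 mice had 57.4 to 61.2 CPM, day 8 mice 52.4, 50.1, 44.4 and 51.2 CPM, and day 13 mice 51.4, 60.0, 44.0 and 46.1 CPM. All 12 mice of day 6, 8 and 13 were below all controls. The difference was -0.33 on day 6 (adjusted p = 0.00175, under the fold minimum), -0.61 ± 0.07 on day 8 (adjusted p = 0.0007, edgeR) and -0.59 ± 0.10 on day 13 (adjusted p = 0.00357, edgeR), the last 2 called in all 8 fits without 1 mouse. Its relatives *Slit1*, at 0.19, and *Slit3*, at -0.06, did not pass on day 13. Rapamycin mice had 60.1, 66.5, 64.6 and 49.6 CPM of *Slit2*, below every control, at -0.31 with an adjusted p of 0.0677.

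*Ntn4*, a netrin of vascular basement membranes that is related to laminins, was low in every *Tsc1-Cre+* group, rapamycin included. Controls had 6.95, 7.39, 6.56 and 6.302 CPM, and all 20 *Tsc1-Cre+* mice were lower, from 4.06 to 6.18 CPM. The differences were -0.29 on day 4 (not passed), -0.43 on day 6 (adjusted p = 0.00579, under the fold minimum), -0.51 on day 8, -0.52 on day 13 and -0.51 under rapamycin, the last 3 called. They lie next to the fold minimum of 0.5, and without 1 mouse at a time the call held in 5, 3 and 4 of 8 fits on day 8, on day 13 and under rapamycin. The day 13 call was also lost with the replicate letter as a block, at an adjusted p of 0.0613, and with *Xist* as a covariate, at -0.47. The day 8 call was lost at -0.50 in DESeq2 and with DESeq2 size factors, and at -0.49 in the fit of all 24 mice. The summed endothelial markers were 152 to 189 CPM in controls, 134 to 153 on day 4, 145 to 159 on day 6, 154 to 195 on day 8, 160 to 208 on day 13 and 118 to 128 under rapamycin, and their part in the *Ntn4* values was not tested. The other netrins, *Ntn1*, *Ntn3* and *Ntn5*, lay between -0.38 and -0.02 on day 13 and did not pass.

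The receptors also moved in both directions. *Plxnd1*, the receptor of Sema3e, which is best known from vessels and from neurons with selective synapses, had 27.8, 22.5, 30.9 and 22.2 CPM in controls. Day 4 mice had 25.5 to 37.6 CPM and day 6 mice 28.5 to 39.7 CPM, overlapping the controls. Day 8 mice had 43.7, 57.0, 40.4 and 41.7 CPM and day 13 mice 75.8, 40.1, 47.9 and 35.6 CPM, all above every control. The rise was 0.81 ± 0.13 on day 8 (adjusted p = 0.00322, edgeR), called in all 8 fits without 1 mouse, and 0.93 ± 0.22 on day 13 (adjusted p = 0.015, edgeR), called in 7 of 8 and at an adjusted p of 0.0511 without control D. Rapamycin mice had 21.7 to 33.1 CPM and overlapped the controls.

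*Epha10*, an Eph receptor whose kinase domain lacks activity, was the one member called on day 4. At the adjusted p alone, 8 of 71 members passed on that day, against 4.16% of all genes. Controls were tightly grouped at 50.5, 50.1, 48.6 and 48.7 CPM. Day 4 mice had 76.6, 88.9, 82.3 and 67.1 CPM, day 6 mice 62.3, 64.1, 62.8 and 65.7 CPM, day 8 mice 65.5, 73.8, 79.4 and 65.7 CPM, and day 13 mice 97.1, 64.5, 119.6 and 77.8 CPM. Every *Tsc1-Cre+* mouse was thus above every control, with the day 6 mice nearest to them among the untreated groups. The difference was 0.67 ± 0.07 on day 4 with an adjusted p of 0.000573, and this call held in all 8 fits without 1 mouse. It was 0.36 ± 0.04 on day 6, with an adjusted p of 5.61e-05 but under the fold minimum, 0.51 ± 0.07 on day 8 and 0.84 ± 0.17 on day 13, the last 2 called. Rapamycin mice had 61.2, 55.4, 53.0 and 53.9 CPM, also above every control, at 0.18 ± 0.05 with an adjusted p of 0.0861. Exons of *Epha10* overlap *1700125G02Rik* on the opposite strand, so the share of reads that belongs to each gene is uncertain.

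*Epha2* and *Ephb2* were the other Eph receptors called, both higher on day 13. *Epha2*, an ephrin-A receptor, is rare in this tissue, with 2.00, 1.82, 1.67 and 1.51 CPM in controls, or 79 to 109 counts per mouse. It had 2.57, 2.04, 2.96 and 2.07 CPM on day 8 and 5.26, 4.26, 3.61 and 2.64 CPM on day 13, both above every control, and rose by 1.155 ± 0.21 on day 13 (adjusted p = 0.00459, edgeR). *Ephb2*, a receptor of dendritic spines that associates with NMDA receptors, had 42.5, 40.1, 42.5 and 37.3 CPM in controls and 60.6, 68.8, 56.1 and 55.8 CPM on day 13, a rise of 0.55 ± 0.08 (edgeR adjusted p = 0.00173). All 16 untreated *Tsc1-Cre+* mice had more *Ephb2* than any control. Its differences on day 4, 6 and 8 were 0.22, 0.25 and 0.36, of which those on day 6 and day 8 passed the adjusted p and none the fold minimum. The other 11 Eph receptors lay between -0.44 and 0.29 on day 13 and were not called, including the 3 most abundant, *Epha4* at 0.06, *Epha6* at -0.15 and *Epha7* at 0.08.

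*Plxnb1* and *Plxna3* fell on day 13. *Plxnb1*, the receptor of Sema4d, had 115, 124, 116 and 106 CPM in controls, 84.4, 93.2, 79.8 and 90.3 CPM on day 8 and 52.8, 53.8, 91.0 and 85.8 CPM on day 13. The mice of both days were below all controls, with day 13 split into a lower pair (A and B) and a higher pair (C and D). The difference was -0.42 ± 0.07 on day 8 (adjusted p = 0.00263, under the fold minimum) and -0.72 ± 0.18 on day 13 (adjusted p = 0.0185, called), with an adjusted p of 0.0507 for day 13 without control B. Its exons overlap *Gm7628* on the opposite strand. *Plxna3*, a class A plexin that pairs with neuropilins, had 30.9, 28.8, 31.4 and 27.7 CPM in controls and 18.7, 17.3, 21.3 and 17.9 CPM on day 13, at -0.68 ± 0.09 with an adjusted p of 0.00131, and it overlapped the controls on day 4, 6 and 8. The other 6 plexins lay between -0.45 for *Plxnb3* and 0.26 for *Plxna4* on day 13. *Dcc*, the attractive netrin receptor, had 77.5 to 92.5 CPM in controls and 56.0 to 60.6 CPM on day 13, at -0.54 with an adjusted p of 0.00144, and without control A it was at -0.48 and not called. No neuropilin and no Robo receptor was called by edgeR on day 13. *Nrp1* was at 0.36 and *Nrp2* at 0.13, and the 4 Robo receptors lay between -0.28 for *Robo1* and 0.21 for *Robo4*; the lowest adjusted p of these was 0.0647, for *Nrp1*.

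**Figure D4:**
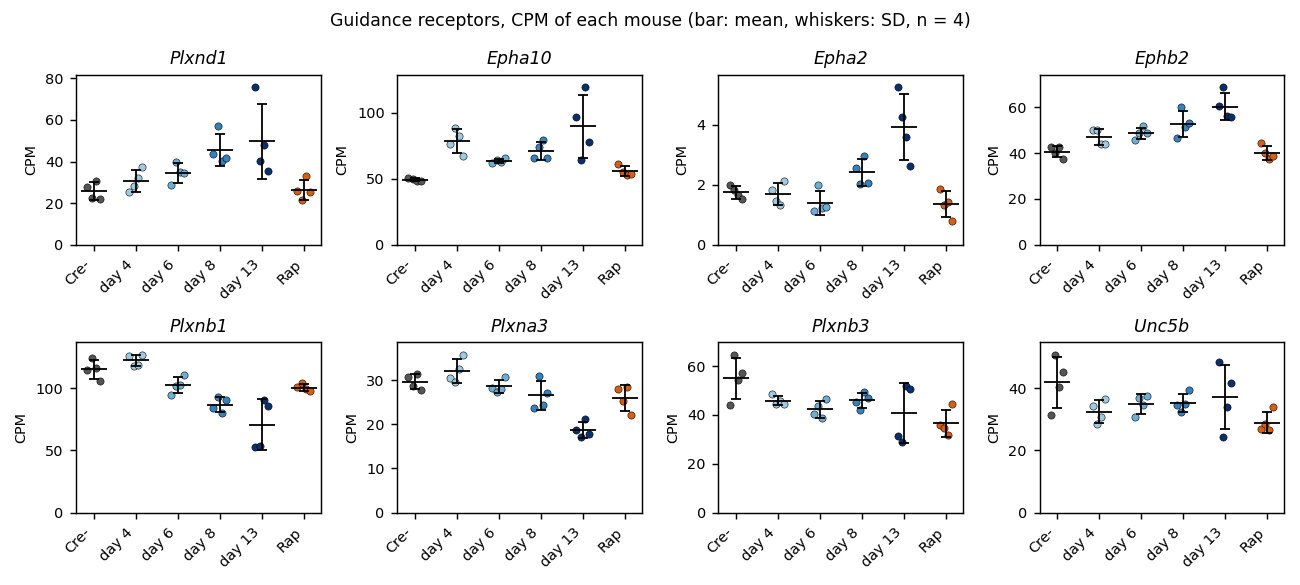
CPM of 8 guidance receptor genes in each of the 24 mice, 4 in each group, with the mean as a bar and the SD as whiskers; each vertical axis starts at 0. *Epha10* lies above all controls (48.6 to 50.5 CPM) in every other group, *Plxnd1* from day 8 on, and *Plxnb1* lies below its controls on day 8 and day 13.

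The day 13 values of known ligands and their receptors are set side by side here, and no test of the pairs was run. *Sema3e* (0.72) and its receptor *Plxnd1* (0.93) were both higher. For *Sema3a* (1.5), the co-receptor *Nrp1* was at 0.36, *Plxna1* at 0.15, *Plxna2* at 0.24 and *Plxna4* at 0.26, none of them called, and *Plxna3* was lower at -0.68. *Sema7a* (0.66) stood beside *Plxnc1* at 0.09, which did not pass, and *Itgb1*, the integrin subunit, which rose by 0.59. *Sema4d*, at -0.31 with an adjusted p of 0.0303, and *Plxnb1*, at -0.72, were both below control. *Slit2* (-0.59) stood beside *Robo1* at -0.28 and *Robo2* at -0.23, which did not pass. *Ntng1* (-1.74) stood beside its partner *Lrrc4c* at -0.23 with an adjusted p of 0.143, and *Ntng2* (-0.31) beside its partner *Lrrc4* at -0.16, with an adjusted p of 0.214.

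The other genes of the pathway were taken from 2 lists. The first holds 34 guidance partners, which are co-receptors, adhesion molecules and minor cues, of which 33 could be tested. On day 13, 6 of these 33 were called, 18.2%, near the 16.5% of all genes and 16.6% of protein-coding genes, with a median log2 fold change of -0.04 in the list. *Gpc1*, a heparan sulfate glypican that binds Slits, rose by 0.90, *Ptprf*, a receptor phosphatase of axons, by 0.81, and *Itgb1* by 0.59. *Gpc3*, another glypican, fell by 1.85, *Vangl2*, a planar polarity protein, by 0.72, and *Cntn2*, an axonal adhesion molecule, by 0.57. *Gpc3* was also called on day 4, at -0.69 with an adjusted p of 0.0353. The second list holds 66 genes of guidance signalling inside the cell, such as collapsin response mediators and actin regulators. On day 13, 4 of 66 were called, 6.06%, against 16.5% of all genes. The called genes were *Rras*, a small GTPase on which plexins act, with a rise of 0.67, the actin regulators *Cfl1* and *Vasp* with rises of 0.64 and 0.56, and *Nyap1*, a neuronal adaptor of phosphoinositide 3-kinase, with a fall of 0.63. *Dpysl5*, a collapsin response mediator, was called on day 4, at 0.54 with an adjusted p of 0.00267.

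Few members were called between the rapamycin group and the controls, though their share was above that of all genes. In the rapamycin group, 3 of 71 members were called against control, 4.23%, compared with 1.41% of all genes and 1.88% of protein-coding genes. At the adjusted p alone, 8 of 71 passed, 11.3%, against 3.57% of all genes. All 3 called members were lower. The median of the members was -0.09, and 20 of the 71 lay above control. Of all genes tested, 12848 of 25006 lay above control, with a median of 0.006. Of the protein-coding genes tested, 7409 of 15765 did, with a median of -0.01. *Plxnb3*, a plexin of oligodendrocytes, had 44.2, 64.6, 54.3 and 57.1 CPM in controls and 35.8, 34.5, 31.7 and 44.4 CPM under rapamycin, which overlap at 1 mouse, with a difference of -0.59 ± 0.11 (adjusted p = 0.0134, edgeR). The 5 oligodendrocyte markers summed to 2380, 3580, 2960 and 3600 CPM in the same controls and to 1900 to 2590 CPM under rapamycin, with 3 of the 5 called lower and a median of -0.59, and their part in the *Plxnb3* value was not tested. *Unc5b*, a netrin receptor found on vessels, had 31.3, 50.7, 40.5 and 45.2 CPM in controls and 26.9, 28.3, 26.6 and 34.0 CPM under rapamycin, also overlapping, at -0.53 ± 0.12 with an adjusted p of 0.0326. This call held in 2 of 8 fits without 1 mouse. It was lost in the fit of all 24 mice, at an adjusted p of 0.101, and with *Xist* as a covariate, at 0.0857. The summed endothelial markers were 118 to 128 CPM under rapamycin against 152 to 189 in controls, and 2 of the 5, *Cldn5* and *Kdr*, were called lower, their part in the *Unc5b* value being not tested. *Plxnb3* and *Unc5b* also had means below control in every untreated *Tsc1-Cre+* group, without a call and with overlapping mice. In order of time, these means were 45.8, 42.3, 45.9 and 40.7 CPM for *Plxnb3*, against 55.05 in controls. For *Unc5b* they were 32.5, 34.9, 35.3 and 37.1 CPM, against 41.9. Rapamycin against day 13 gave -0.15 for *Plxnb3* and -0.35 for *Unc5b*, neither called. *Ntn4* was the third member called against control, at -0.51. Without control B, 1 member was called in place of 3. Without mouse B of the rapamycin group, *Unc5b* and *Ntn4* were likewise not called. No share of all genes is given beside these fits.

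Compared directly with day 13 mice that received no rapamycin, 13 of 70 members were called, 18.6%, near the 21.1% of all genes and 21.2% of protein-coding genes. This comparison uses the same day 13 mice as that with the controls, so the values of both are not independent. Of the 13, 3 were higher under rapamycin and 10 lower. The higher ones were *Ntng1* at 1.68 ± 0.24 (adjusted p = 0.00128, edgeR), *Sema4g* at 0.86 and *Dcc* at 0.52, the last called in 4 of 8 fits without 1 mouse. The lower ones were *Epha2* at -1.55, *Sema3a* at -1.45, *Sema7a* at -0.93, *Plxnd1* at -0.91, *Sema3e* at -0.88, *Efna3* at -0.84, *Sema4a* at -0.82, *Epha10* at -0.68, *Ephb2* at -0.57 and *Efna1* at -0.57, the last called in 3 of 8 fits without 1 mouse. The 4 rapamycin mice did not overlap the 4 day 13 mice in any of these 13 genes. These genes were picked by the same comparison, so this is no separate evidence. *Sema4a*, a transmembrane semaphorin, had 23.99 to 44.3 CPM on day 13, 21.5 to 25.0 in controls and 16.6 to 19.9 under rapamycin. *Efna1*, an ephrin-A of vessels and neurons, was 3.41 to 5.18, 2.49 to 4.94 and 2.62 to 3.40 CPM in these groups.

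**Figure D5:**
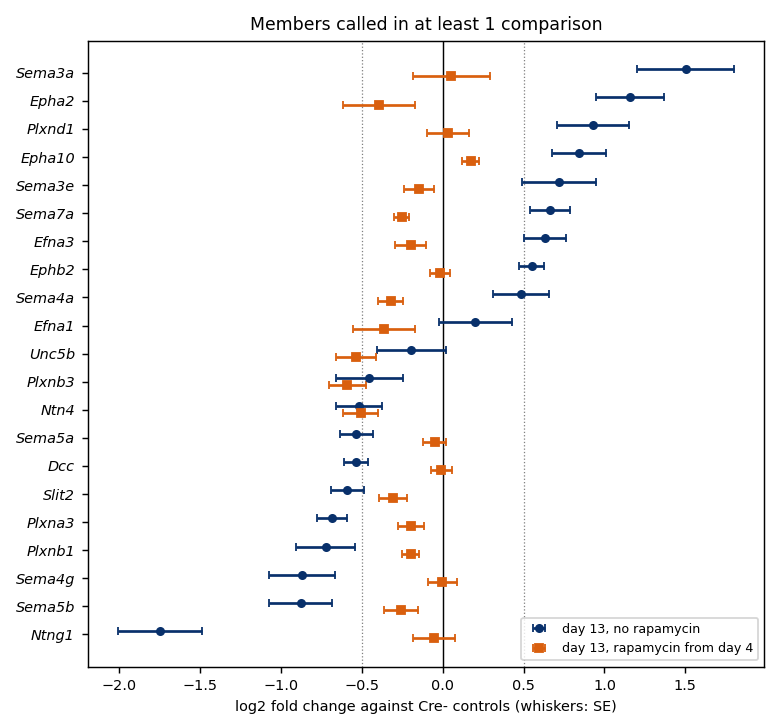
Log2 fold change against the 4 controls, with SE, of the 21 members called in at least 1 comparison, for day 13 mice without rapamycin (circles) and day 13 mice with rapamycin from day 4 (squares); dotted lines mark the fold minimum of 0.5. *Ntng1* is at -1.74 without and -0.05 with rapamycin, *Sema3a* at 1.5 and 0.05, and *Ntn4* at -0.52 and -0.51.

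Of the members that fell on day 13, the distance from control under rapamycin was -0.05 for *Ntng1*, 0.00 for *Sema4g*, -0.05 for *Sema5a* and -0.01 for *Dcc*. It was -0.20 for both *Plxna3* and *Plxnb1*, -0.26 for *Sema5b*, -0.31 for *Slit2* and -0.51 for *Ntn4*. The last gene had 4.298 to 5.48 CPM under rapamycin against 4.06 to 5.78 CPM on day 13, and its difference between these groups was 0.00 ± 0.16. For *Plxna3* and *Plxnb1*, rapamycin mice were above all day 13 mice, by 0.48 with an adjusted p of 0.0118 and 0.51 with an adjusted p of 0.0514, and neither was called. For the members that rose, the distance under rapamycin was 0.05 for *Sema3a*, 0.04 for *Plxnd1*, -0.02 for *Ephb2*, -0.15 for *Sema3e*, -0.20 for *Efna3*, -0.25 for *Sema7a*, -0.39 for *Epha2* and 0.18 for *Epha10*.

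Markers of cell types moved with some of the groups. On day 13, the 5 granule cell markers summed to 216 to 337 CPM against 356 to 392 in controls and 365 to 466 under rapamycin, and 1 of the 5, *Calb1*, was called lower. The 6 astrocyte markers summed to 1190 to 2390 CPM on day 13 and 847 to 1770 on day 8, against 1070 to 1110 in controls and 853 to 906 under rapamycin. Of the 6, *Gfap* and *Vim* were called higher and *Gja1* lower on day 13. The interneuron markers (342 to 466 CPM on day 13, 356 to 383 in controls) and pyramidal markers (2720 to 3750 and 2480 to 3250 CPM) overlapped the controls, with *Slc17a7* and *Neurod2* of the 5 pyramidal markers called higher. None of the 5 microglia, 5 oligodendrocyte, 4 precursor, 5 endothelial or 4 pericyte markers was called by edgeR on day 13, though 2 endothelial markers passed the adjusted p and missed the fold minimum. Under rapamycin against control, 3 of 5 oligodendrocyte, 2 of 5 microglia, 2 of 5 endothelial and 2 of 6 astrocyte markers were called lower, with list medians of -0.59, -0.47, -0.44 and -0.25, beside the 3 guidance members called lower there. The part of these cell types in the differences of the guidance genes was not tested.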

How the data were processed

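Hippocampal RNA of 24 mice was measured, 1 library per mouse, and groups and replicate letters were taken from the sample titles. The authors prepared stranded libraries from rRNA-depleted RNA, trimmed reads with cutadapt 1.16.5, aligned them with STAR 2.7.2b to mm10 (GRCm38), counted them per GENCODE gene with featureCounts 1.6.4, as the submitters' processing notes name them, and deposited raw read counts. The strand setting and the handling of reads with several alignments are not given in the sources used here. Symbols, gene types and merged exon lengths came from GENCODE M21 on the same build, in which 55144 of 55385 identifiers were found. Promoters came from RefSeq (GRCm38.p6).

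All groups of *Tsc1-Cre+* mice were tested against the controls, and rapamycin against day 13, in edgeR 4.0.16 (R 4.3.3) with its quasi-likelihood F test on the 8 mice concerned, with filterByExpr, TMM and Benjamini-Hochberg adjustment over all genes tested. All 71 members passed the filter on low counts against control, and 70 against day 13, where *Efna4* did not. SEs are the absolute log2 fold change over the square root of F. A further F test covered all 6 groups. The steps between time points were added after the values were seen. Depth was 28208561 to 126435936 counts per mouse, and *Efna4*, with 2 to 25 counts, can show large differences only.

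Values of each mouse are given for members called in at least 1 comparison, up to the 14 with the largest absolute log2 fold change on day 13, and for every member called on day 4, on day 6 or under rapamycin against control. Of the 2 lists of other pathway genes, the 3 largest called rises and falls on day 13 are named. Other genes named were chosen as partners or after their values were seen. The members and lists were chosen with earlier results of these data known. Alternatives were DESeq2 1.42.0, all 24 mice in 1 fit, DESeq2 size factors, no filter, no fold minimum, the replicate letter or number series as a block, *Xist* expression as a covariate and each mouse left out in turn. Letters name different animals in each group. No libraries had identical counts.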

Additional observations from a re-analysis of the deposited data

Results flagged for a closer look

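In 102 combinations of a member and a group, 1 mouse was compared with the other three by the gap to its nearest neighbour as a share of the group's range, and 4 exceeded the 95% critical value for 4 samples; chance gives about 1 in 20. *Sema7a* on day 13 was 118.8 CPM in mouse B against 169.7 to 172.5 in the others. *Sema3e* was 110.8 CPM in control A against 84.9 to 89.1 in the other controls. *Sema3a* under rapamycin was 1.83 CPM in mouse B against 3.94 to 4.23, and *Epha2* on day 6 was 1.98 CPM in mouse B against 1.12 to 1.26.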

How the results depend on the processing

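Without the fold minimum, members called numbered 8 on day 4, 16 on day 6, 15 on day 8, 27 on day 13, 8 for rapamycin against control and 22 for rapamycin against day 13, where 4.16%, 10.1%, 13.3%, 26.9%, 3.57% and 30.8% of all genes passed in the same order. With 1 mouse left out at a time, day 6 gave 0 to 1 (1 without control C), day 8 gave 4 to 8 (4 without any 1 control or without mouse A of day 8), and rapamycin against control gave 1 to 3 (1 without control B). Apart from these, the counts stayed within 1.5 times of the reported ones in the alternatives run, at 14 to 20 on day 13, 11 to 18 for rapamycin against day 13 and 38 to 46 in the 6-group test, mice left out included. The shares of all genes called in these other fits are not set beside the counts. No difference of a called member changed direction. For some calls the fold or the adjusted p lay near the threshold, and the cause of their loss in other fits was not tested. Same-lettered mice did not deviate together (correlations of -0.17 to 0.165), and with the replicate letter as a replicate block 1, 0, 7, 17, 3 and 14 members were called in the 6 comparisons and 43 over the 6 groups. The number series as a block left 7 on day 8. Depth limits what can be shown for members with few counts, such as *Efna4*.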
